A study of Homo sapiens with 64 samples.

Results

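The genes described here are 40 interferon-stimulated genes, chosen by name, and they were read on 64 Affymetrix arrays of BEAS-2B, a human cell line derived from bronchial epithelium and immortalised in culture. A gene was read from 1 probe set, the brightest on average over the arrays among those whose platform annotation gives that symbol alone. Of the 40 genes 38 were found in this way, among 18132 genes on the arrays. USP18 was present only on a probe set that carries several symbols, and STAT2 was not analysed here. The 38 genes had 100 probe sets in all, and 24 of them had more than 1.

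Cells were kept in serum-free medium overnight and then left untreated or given 100 nM budesonide, a synthetic glucocorticoid, 10 nM formoterol, a long-acting β2-adrenoceptor agonist, or both agents at these doses, called the combination. RNA was taken 1, 2, 6 and 18 h later, which gave 16 groups with 4 arrays in each. The labels name no interferon, virus or other inducer, so the levels are those of cells given no such stimulus. All groups come from a single cell line, and p-values reflect only how these repeats varied.

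Interferons are secreted proteins that cells release on sensing viral nucleic acid. Type I and type III interferons act through Janus kinases on a complex of STAT proteins and IRF9, which binds the interferon-stimulated response element, while interferon gamma acts through STAT dimers on the gamma-activated site. The induced proteins bind or cut viral RNA, block entry or release of virus, attach ISG15 to other proteins and present viral peptides to T cells, and in airway epithelium they form an early barrier to respiratory viruses.

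Promoter windows of the 250 bases before a transcription start were taken from RefSeq (GRCh38.p14), which gave 44 windows for 32 of the 38 genes. No entry was matched for IFIT2, OAS2, OASL, MX2, TRIM22 and IRF7. The windows of 6 genes are shown because the results turn on them: ISG20, IRF1, TAP1, PSMB9 and IFIT3 changed with a drug, and ISG15 is among the genes that differed most between arrays of one group. Each is written 5′ to 3′ along its gene. Capitals mark the core of the interferon-stimulated response element (GAAANNGAA), the gamma-activated site (TTCNNNGAA) and the short cyclic AMP response motif (TGACG), on either strand.
ISG20 (chr15:88638766-88639015, plus strand): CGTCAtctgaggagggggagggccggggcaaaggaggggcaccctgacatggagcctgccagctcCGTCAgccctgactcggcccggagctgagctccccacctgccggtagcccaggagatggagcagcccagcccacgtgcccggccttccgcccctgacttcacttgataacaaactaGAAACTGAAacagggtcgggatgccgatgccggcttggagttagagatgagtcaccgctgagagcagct
IRF1 (chr5:132490774-132491023, minus strand): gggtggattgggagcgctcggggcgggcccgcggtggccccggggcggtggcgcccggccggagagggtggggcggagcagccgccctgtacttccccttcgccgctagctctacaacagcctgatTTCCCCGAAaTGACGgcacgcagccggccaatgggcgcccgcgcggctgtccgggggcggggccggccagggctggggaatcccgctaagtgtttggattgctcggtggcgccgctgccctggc
TAP1 (chr6:32853705-32853954, minus strand): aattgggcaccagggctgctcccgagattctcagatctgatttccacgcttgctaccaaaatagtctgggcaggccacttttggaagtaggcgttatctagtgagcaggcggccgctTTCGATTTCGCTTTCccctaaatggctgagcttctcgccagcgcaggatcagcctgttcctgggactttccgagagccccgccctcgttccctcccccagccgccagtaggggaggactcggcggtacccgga
PSMB9 (chr6:32853942-32854191, plus strand): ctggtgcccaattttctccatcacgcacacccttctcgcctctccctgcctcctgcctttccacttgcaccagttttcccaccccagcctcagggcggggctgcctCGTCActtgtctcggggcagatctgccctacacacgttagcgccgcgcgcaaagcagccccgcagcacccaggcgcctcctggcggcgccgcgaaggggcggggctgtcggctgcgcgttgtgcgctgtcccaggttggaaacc
IFIT3 (chr10:89327747-89327996, plus strand): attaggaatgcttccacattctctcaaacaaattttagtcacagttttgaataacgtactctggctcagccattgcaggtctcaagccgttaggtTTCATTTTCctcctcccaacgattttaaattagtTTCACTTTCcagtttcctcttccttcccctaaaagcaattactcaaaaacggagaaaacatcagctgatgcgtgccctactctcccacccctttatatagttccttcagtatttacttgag
ISG15 (chr1:1013247-1013496, plus strand): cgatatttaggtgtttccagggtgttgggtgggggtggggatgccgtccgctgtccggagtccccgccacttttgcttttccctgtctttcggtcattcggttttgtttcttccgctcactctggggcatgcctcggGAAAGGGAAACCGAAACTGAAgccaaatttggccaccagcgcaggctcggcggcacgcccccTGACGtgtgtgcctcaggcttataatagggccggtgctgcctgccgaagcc

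Of the 44 windows 25 (56.8%) held the response element core, against 6.9% of all 35116 RefSeq promoter windows of this length. The gamma-activated site stood in 25% of the windows and in 6.6% of all. AGAACA, the short motif of the glucocorticoid receptor, stood in 4.5% against 12.4%, and TGACG in 15.9% against 21.2%. The share of AGAACA depended on the window. With the 50 bases after the start included it stood in 13.6%, against 14.8% of all. The palindrome TGACGTCA, which contains TGACG, was in none of the 44 windows and in 1.6% of all. Both strands were searched, motifs can overlap, some genes have several windows, and a match is a description of letters, not a binding site.

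In the windows shown, ISG20 held 1 response element core, 69 bases before the start, and TGACG 250 and 185 bases before it. IRF1 held the gamma-activated site 124 bases and TGACG 114 bases before the start, and no response element core. TAP1 and PSMB9 lie head to head on chromosome 6 with 487 bases between the starts used here. The TAP1 window shown held overlapping cores 133 and 127 bases before its start, and the PSMB9 window held TGACG 144 bases before its start. A further TAP1 window, not shown, held no core and the gamma-activated site 189 bases before its own start. IFIT3 held cores 155 and 121 bases before the start. A further IFIT3 window, not shown, held cores 99, 93 and 50 bases before its own start. ISG15 held overlapping cores 113, 107 and 101 bases before the start and TGACG 51 bases before it.

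The deposited values are log2 values from RMA, and the array medians lay between 4.87 and 4.95. Known targets of both drugs responded. TSC22D3, a glucocorticoid-induced gene, rose by 5.2 ± 0.11 (SE) with budesonide at 6 h (adjusted p = 3.77e-44), and NR4A3, an early target of cyclic AMP signalling, rose by 5.29 ± 0.16 with formoterol at 1 h (adjusted p = 1.54e-35). The keratins KRT8 and KRT18 averaged 9.18 and 10.97 over the arrays and KRT7 5.57, while KRT5 (4.36), KRT19 (3.66) and the epithelial adhesion markers EPCAM (2.5) and CDH1 (4.25) lay below the median of all values, 4.9. VIM was at 13.05 and CDH2 at 10.08. The group means of 6 leukocyte markers lay between 3.08 and 3.22, although CD68 among them was at 5.75. Those of 2 plasmacytoid dendritic cell markers lay between 2.29 and 2.5 and those of 3 endothelial markers between 3.86 and 4.07. For 4 fibroblast markers they lay between 4.46 and 5.06. Of these COL1A1 (8.35) and COL3A1 (5.23) were above the median, and PDGFRA (2.84) and DCN (2.78) below it. In bulk RNA, fewer cells that express a gene and less RNA per cell cannot be told apart.

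Without any inducer, levels of the 38 genes ran from below the lower quartile of all values to above the upper. All 16 group means lay above the upper quartile of all values, 7.28, for 11 of them: IFIT1, BST2, ISG15, UBE2L6, IRF7, IRF9, PARP14, TAP1, PSMB9, IFI6 and IFI35. All lay below the median for 6 (OAS3, RSAD2, CMPK2, CXCL10, IFI44L and XAF1) and below the lower quartile, 3.02, for the chemokine CXCL11, with the other 20 in between. No filter on low values was applied, so all 38 were tested. Probe sets differ in brightness, and these positions give no order of abundance between genes. The quartiles were taken over all probe sets, while each gene was read from its brightest. Shares of all genes in these bands were not computed, so the counts do not show raised levels of these genes.

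The genes differed more between arrays of one group than most genes did. The median within-group SD was 0.279 for the 38 genes and 0.164 over all genes. Of the 38 genes 25 lay above the 90th percentile of all genes and 14 above the 99th. MX2 and MX1, GTPases that trap viral nucleocapsids, had SDs of 0.88 and 0.86 and ranked 2 and 4 among 18132 genes. IFI27 followed with 0.78, then OAS1, which makes the activator of RNase L, with 0.75, and IFI44 with 0.66. By contrast 7 of the 38 lay below the median of all genes, among them IRF1 (0.16), PSMB9 (0.15), TAP1 (0.13) and UBE2L6 (0.11), the conjugating enzyme for ISG15.

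**Figure D1:**
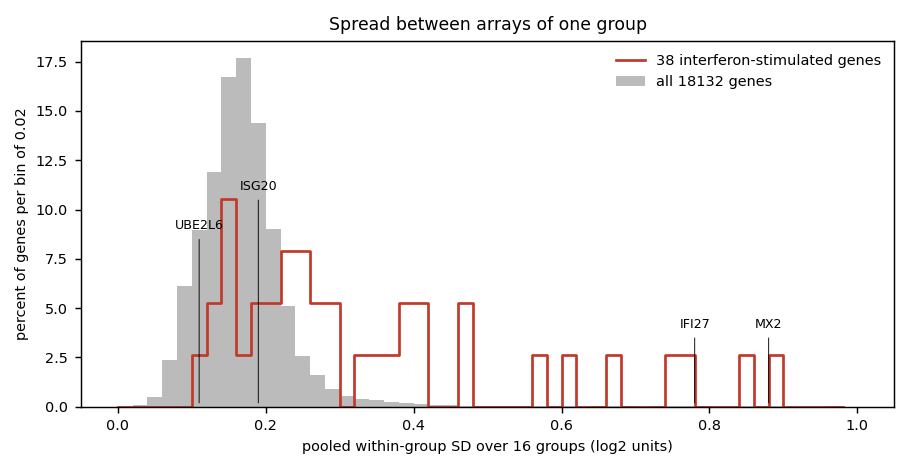
Percent of genes (vertical axis) by within-group standard deviation in log2 units over 16 groups of 4 arrays (horizontal axis), for all 18132 genes (grey) and the 38 interferon-stimulated genes (red line). The median of the 38 genes, 0.279, lies to the right of the median of all genes, 0.164, and MX2 at 0.88 is far in the right tail.

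This spread was shared, with most of the genes high at once on a few arrays. On untreated replicate 4 at 18 h the 38 genes lay on average 0.867 above their group mean, and 35 of them had their highest value of the group there. Combination replicate 4 at 6 h stood 0.678 above its group with 31 genes highest, formoterol replicate 1 at 18 h 0.541 with 32, and untreated replicate 4 at 2 h 0.474 with 27. A limit of 0.45, chosen after these values were seen, set the 4 arrays apart, and the other 60 ranged from -0.398 to 0.332. On those 60 arrays between 0 and 27 genes had their highest value of the group. Budesonide replicate 1 at 1 h had 27, as many as untreated replicate 4 at 2 h, so by this count the 2 sets met. On all 4 arrays 25 of the 38 genes were the highest of their group.

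MX2 in untreated cells at 18 h read 4.49, 4.3, 4.83 and 7.83 on replicates 1 to 4. IFIT1, which binds viral RNA that lacks a host cap, read 6.99, 7.06, 7.68 and 9.47, and ISG15, the ubiquitin-like modifier, read 8.85, 8.52, 8.99 and 10.89. Replicate 4 was far above the other arrays for all 3 genes.

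**Figure D2:**
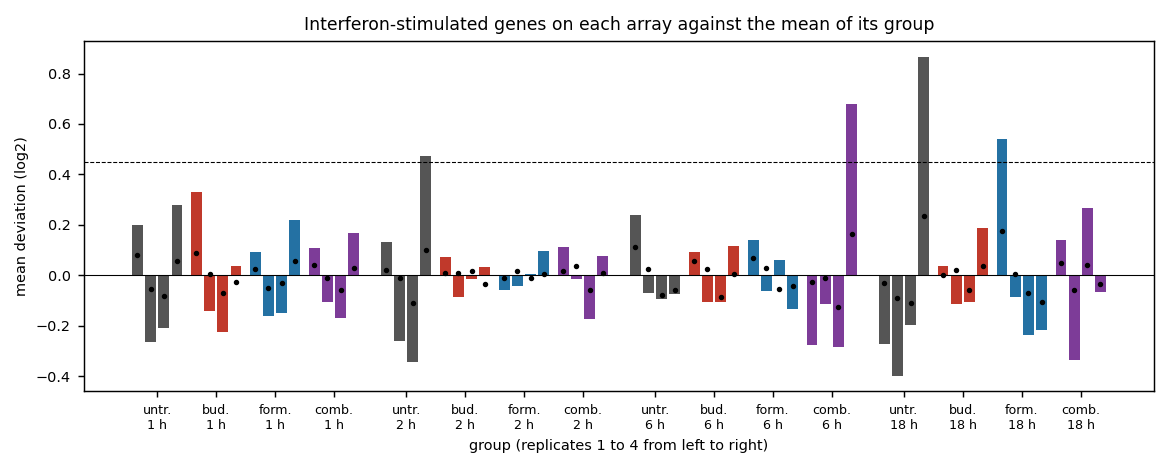
Mean deviation of the 38 genes from their group mean (vertical axis, log2) on each of the 64 arrays (bars, by group and replicate). Black dots give the same for 54 other interferon-induced genes, and the dashed line marks 0.45, above which lie untreated replicate 4 at 2 h and at 18 h, combination replicate 4 at 6 h and formoterol replicate 1 at 18 h.

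In measures taken over all genes and in the actin probe sets the 4 arrays lay within the range of the rest. Their SD from the group means over all genes was 0.150 to 0.161, against 0.121 to 0.234 on the other arrays. The difference between the 3′ and 5′ actin probe sets, a measure tied to RNA integrity, was 0.76 to 1.90, against 0.50 to 2.21. Between 14.9% and 24.6% of all genes had their highest value of the group on them, against 14.4% to 46.4% on the others. The 6 interferon genes measured deviated by -0.041 to 0.046 there and the 6 leukocyte markers by -0.12 to -0.05, while 54 other interferon-induced genes deviated by 0.10 to 0.234. On the other 60 arrays these 54 genes ranged from -0.125 to 0.113. The part of any of these in the high values was not tested. Results were also computed without the 4 arrays and are given both ways where the call differs.

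**Figure D3:**
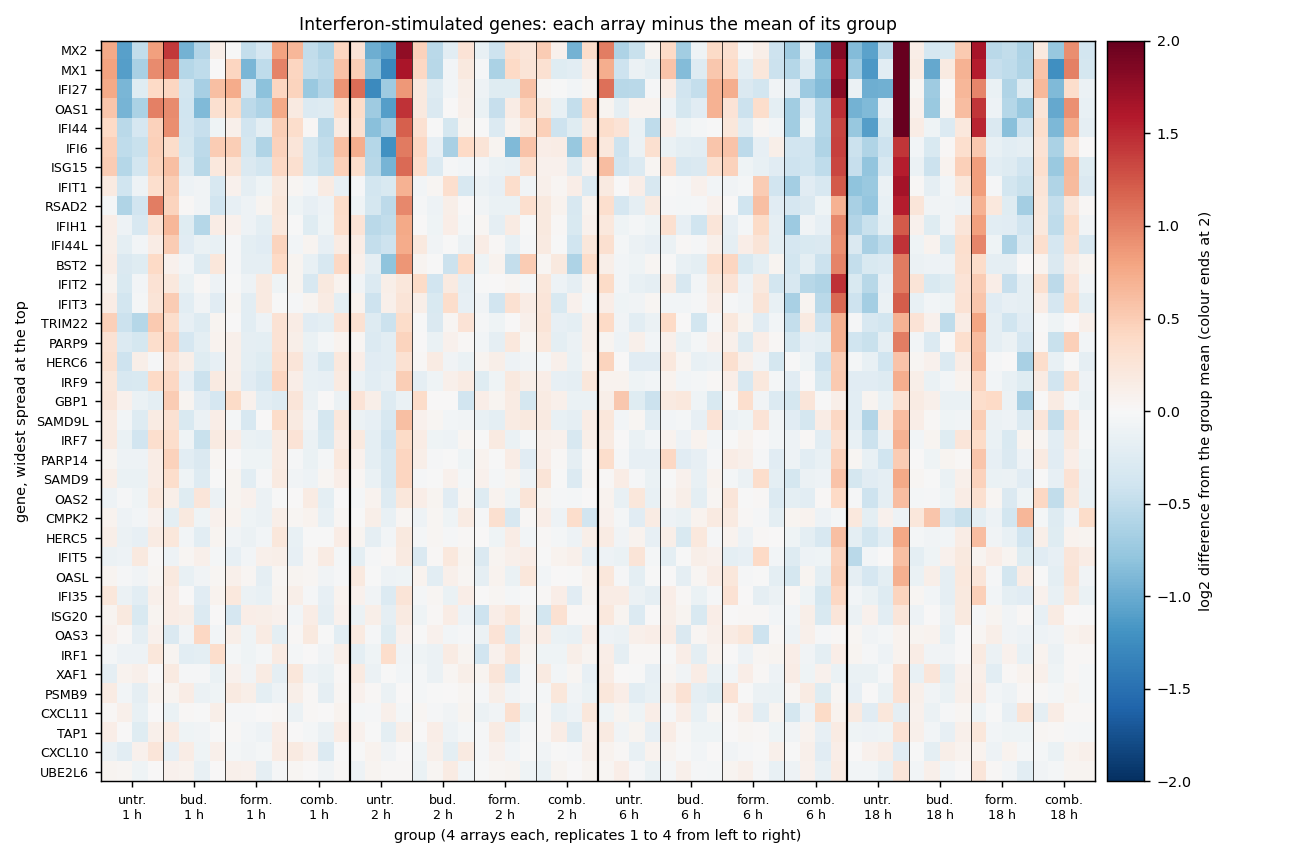
Each array minus its group mean (colour, log2, ending at 2 in either direction) for the 38 genes (rows, widest spread at the top) on 64 arrays (columns, 16 groups of 4 replicates). The 4 arrays that stand apart show as columns with most rows high, by 0.474 to 0.867 on average, while genes of small spread such as UBE2L6 (SD 0.11) stay pale.

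Against this spread 12 of the 38 genes changed in at least 1 of the 12 comparisons with untreated cells, and 26 passed in none. Of all genes 37.8% were called in at least 1. A gene was called at an adjusted p under 0.05 in limma's moderated test, with Benjamini-Hochberg adjustment over all 18132 genes. Of 456 pairs of gene and comparison 35 were called, 22 lower and 13 higher, against 8.43% of all such pairs. Without the 4 arrays 45 were called, of which 31 were among the 35, and 15 genes were called in at least 1 comparison. Those arrays were picked by the 38 genes themselves, so this gain is no independent support. With the replicate number fitted as a block 54 pairs were called, all of the 35 among them. Comparisons at one time share their untreated arrays.

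In comparisons between 2 groups, the genes that gained a call without the 4 arrays and are not given further on with their values were these. With budesonide at 6 h SAMD9L differed by -0.48 ± 0.15 (adjusted p = 0.0248) and HERC5 by -0.28 ± 0.1 (adjusted p = 0.0493). None of the 4 arrays was in these groups. The differences were the same with all arrays (adjusted p = 0.0848 and 0.287), and only the SE was smaller. With the combination at 6 h SAMD9 differed by -0.42 ± 0.12 (adjusted p = 0.00737) and SAMD9L by -0.48 ± 0.17 (adjusted p = 0.0364). With the combination at 18 h, where the high untreated replicate 4 was left out, IFIT1 was higher by 0.58 ± 0.2 (adjusted p = 0.0314), SAMD9 by 0.48 ± 0.12 (adjusted p = 0.00148) and IRF7 by 0.46 ± 0.15 (adjusted p = 0.0175). Between the combination and formoterol alone IFIT2 differed by -0.74 ± 0.17 (adjusted p = 0.00179) at 2 h and by -0.51 ± 0.18 (adjusted p = 0.0386) at 18 h. At 2 h the difference was the same with all arrays (adjusted p = 0.116).

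With budesonide 1 of the 38 genes was called at 1 h, where 0.998% of all genes were. At 2 h 3 were called (7.89%), against 3.94% of all genes, and 2 of them were lower, against 2.26%. At 6 h 4 were called (10.5%), against 14.2%, all 4 of them lower, against 8.12%. At 18 h 7 were called (18.4%), against 18.3%, with 6 lower, against 9.78%. Called in either direction, the share of the 38 genes was below that of all genes at 6 h and near it at 18 h. The median difference of the 38 genes at 18 h was -0.35, against 0.03 over all genes, and 33 of 38 were negative, with the untreated array that stood 0.867 above its group among the controls.

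With formoterol 1 gene was called at 1 h, where 1.34% of all genes were, 1 at 2 h (4.6%), 2 at 6 h (4.81%) and 1 at 18 h (1.11%). ISG20 was called at each time, and TAP1 at 6 h was the other. At 1 h and 2 h arrays with the same replicate number deviated together, and with that number as a block 2 and 4 genes were called. The added genes were IRF1 at 1 h (-0.31 ± 0.08, adjusted p = 0.0128) and, at 2 h, IFIT2 (-0.76 ± 0.24, adjusted p = 0.0294), IFIT3 (-0.77 ± 0.22, adjusted p = 0.0163) and GBP1 (-0.51 ± 0.13, adjusted p = 0.00462). Without the 4 arrays IFIT2 and IFIT3 were called at 2 h as well, at -0.69 ± 0.18 (adjusted p = 0.0128) and -0.68 ± 0.18 (adjusted p = 0.0114).

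With the combination none of the 38 genes was called at 1 h by limma, where 2.76% of all genes were and 3 of the 38 had an unadjusted p under 0.05. At 2 h 3 were called, against 9.49% of all genes, with 2 lower, against 5.65%. At 6 h 7 were called (18.4%), against 18.6%, with 4 higher, against 8.61%, and 3 lower, against 9.95%. At 18 h 5 were called (13.2%), against 21.0%, with 1 higher and 4 lower, where 10.7% of all genes were lower. Leaving out the 4 arrays gave 7 genes at 18 h, 5 of them higher (IFIT1, SAMD9, TRIM22, IRF7 and IRF9) and 2 lower (IRF1 and PSMB9). The block added SAMD9 (-0.44 ± 0.16, adjusted p = 0.0458) and GBP1 (-0.49 ± 0.13, adjusted p = 0.00423) at 2 h, which made 5. Without the 4 arrays IFIT2 was called at 1 h at -0.86 ± 0.17 (adjusted p = 0.000259) and IFIT3 at -0.59 ± 0.16 (adjusted p = 0.0257). None of the 4 arrays was taken at 1 h. Both differences were the same with all arrays (adjusted p = 0.054 and 0.334), and only the SE was smaller.

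**Figure D4:**
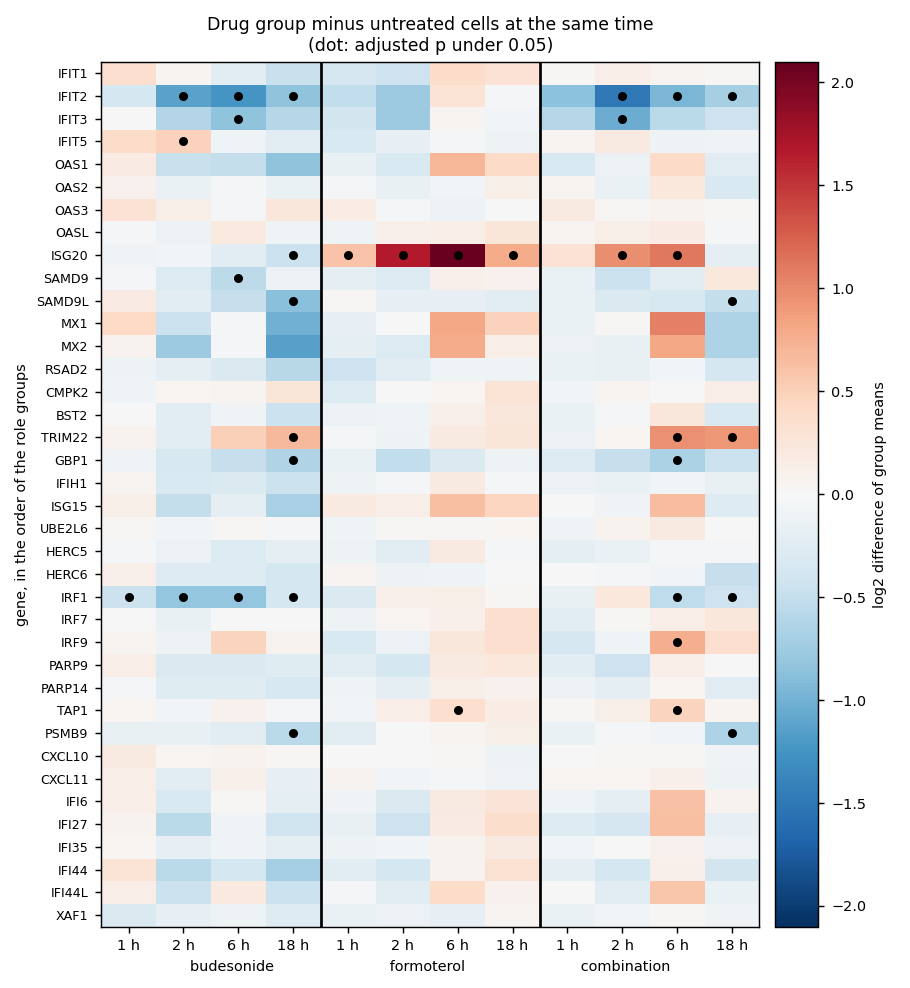
Log2 difference between each drug group and untreated cells at the same time (columns, 3 treatments at 4 times) for the 38 genes (rows); dots mark an adjusted p under 0.05. ISG20 with formoterol reaches 2.08 at 6 h, IFIT2 and IRF1 are lower with budesonide, and MX2 with budesonide at 18 h is at -1.14 without a dot.

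Among the 11 genes whose proteins bind or cut viral RNA 6 were called in at least 1 comparison with untreated cells. Of all genes 37.8% were. The role groups are small, and their counts were not tested against that share. ISG20, an exonuclease that degrades single-stranded RNA, was the one that rose with formoterol. At 6 h it read 5.77, 5.61, 5.28 and 5.55 on the untreated arrays and 7.65, 7.65, 7.66 and 7.58 with formoterol. With the combination it read 6.6, 6.78, 6.36 and 6.9, and with budesonide 5.46, 5.38, 5.02 and 5.47. The formoterol arrays lay above all others and the combination arrays lay above the untreated and budesonide arrays. At 2 h untreated cells read 5.39, 5.63, 5.34 and 5.7 and formoterol-treated cells 6.77, 7.31, 7.41 and 7.23, again without overlap.

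The rise with formoterol was 0.61 ± 0.13 (adjusted p = 0.00305) at 1 h, 1.66 ± 0.13 (adjusted p = 1.85e-15) at 2 h, 2.08 ± 0.13 (adjusted p = 5.06e-19) at 6 h and 0.79 ± 0.13 (adjusted p = 0.000118) at 18 h. The effect differed between times (moderated F test, adjusted p = 6.53e-09), with the largest of the 4 values at 6 h. Without untreated replicate 3 the 1 h value was 0.5 (adjusted p = 0.0593).

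With budesonide added, ISG20 rose less. The combination was above untreated cells by 0.98 ± 0.13 (adjusted p = 4.02e-08) at 2 h and 1.11 ± 0.13 (adjusted p = 5.65e-10) at 6 h. At 18 h the combination arrays read 5.2, 5.52, 5.37 and 5.35, against 6.33, 6.41, 6.28 and 6.37 with formoterol and 5.44, 5.65, 5.35 and 5.8 untreated. All combination arrays lay below all formoterol arrays then, and within or below the untreated range. Relative to formoterol alone the combination was lower by 0.68 ± 0.13 (adjusted p = 0.000165) at 2 h, 0.98 ± 0.13 (adjusted p = 2.75e-08) at 6 h and 0.99 ± 0.13 (adjusted p = 1.98e-08) at 18 h. The combination effect also differed between times (moderated F test, adjusted p = 5.44e-08).

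The interaction for ISG20, meaning the combination effect minus both single effects, was -0.76 ± 0.19 (adjusted p = 0.028) at 6 h. That call was lost on leaving out any of 9 single arrays, with an adjusted p between 0.0512 and 0.128, and without the arrays numbered 1 (adjusted p = 0.0835). At 2 h it was -0.62 ± 0.19 (adjusted p = 0.184), not called, and -0.62 ± 0.15, adjusted p = 0.00918 with the replicate block, which made 2 genes called. Budesonide alone read 5.02, 5.13, 5.0 and 5.31 at 18 h, a fall of 0.45 ± 0.13 (adjusted p = 0.0102). Without untreated replicate 4 it was -0.37 (adjusted p = 0.0674), and without the 4 arrays -0.37 ± 0.14 (adjusted p = 0.0671), not called.

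IFIT2 and IFIT3, tetratricopeptide proteins that act with IFIT1 on viral RNA, fell with budesonide. IFIT2 at 6 h read 6.99, 6.56, 6.47 and 6.43 untreated and 5.55, 5.05, 5.32 and 5.57 with budesonide, without overlap. The difference was -1.13 ± 0.26 (adjusted p = 0.0024) at 2 h, -1.24 ± 0.26 (adjusted p = 0.000193) at 6 h and -0.84 ± 0.26 (adjusted p = 0.0136) at 18 h. With the combination at 2 h it read 5.57, 5.23, 5.16 and 5.39, against 6.77, 6.57, 6.95 and 7.07 untreated, a difference of -1.5 ± 0.26 (adjusted p = 9.93e-06). Both IFIT2 probe sets were lower in these comparisons, from -1.24 to -0.38 for budesonide at 6 h.

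Some later values of IFIT2 turned on single arrays. The combination at 6 h read 5.33, 5.11, 5.06 and 7.12, and its replicate 4 is one of the 4 arrays set apart. The difference from untreated cells was -0.96 ± 0.26 (adjusted p = 0.00378) with it, -1.45 ± 0.18 (adjusted p = 2.4e-09) without the 4 arrays and -0.73 (adjusted p = 0.131) without the arrays numbered 1. Relative to formoterol alone it was -1.25 ± 0.26 (adjusted p = 0.000165) and -1.74 ± 0.18 (adjusted p = 1.23e-11). At 18 h untreated cells read 6.56, 6.31, 6.71 and 7.91. Without replicate 4 of these the budesonide difference was -0.5 (adjusted p = 0.212), and without budesonide replicate 2 it was -0.74 (adjusted p = 0.0611). Without the 4 arrays it was -0.5 ± 0.18 (adjusted p = 0.0473), still called.

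The combination difference of IFIT2 at 18 h was -0.7 ± 0.26 (adjusted p = 0.0415) and became -0.36 (adjusted p = 0.402) without untreated replicate 4. Without the 4 arrays it was -0.36 ± 0.18 (adjusted p = 0.178), not called. The call was also lost without combination replicate 2 or 4, at adjusted p = 0.2 and 0.0859. As the mean of both probe sets the combination differences were not called at 6 h or 18 h (adjusted p = 0.184 and 0.194).

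IFIT3 at 6 h read 6.99, 6.78, 6.8 and 6.9 untreated and 5.96, 5.96, 6.0 and 6.14 with budesonide, a difference of -0.85 ± 0.25 (adjusted p = 0.0104). With all arrays numbered 1 left out this was -0.79 (adjusted p = 0.0674), which is not called. With the combination at 2 h it read 6.63, 6.08, 6.47 and 6.35, against 7.5, 7.0, 7.52 and 7.68, a difference of -1.04 ± 0.25 (adjusted p = 0.00171). The groups did not overlap in either comparison. The combination at 6 h read 5.64, 6.35, 5.75 and 7.44, again with replicate 4 high. Its difference was -0.57 ± 0.25 (adjusted p = 0.107), not called, and -0.95 ± 0.18 (adjusted p = 2.29e-05) without the 4 arrays.

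IFIT5, which binds viral RNA with a free triphosphate, rose with budesonide at 2 h. It read 7.18, 7.49, 7.68 and 7.52, against 6.79, 6.97, 7.02 and 7.17 untreated, without overlap, a difference of 0.48 ± 0.15 (adjusted p = 0.0465). The call was lost without any of 6 single arrays, with an adjusted p between 0.0786 and 0.188, and in the mean of both probe sets (adjusted p = 0.0647). The budesonide effect on IFIT5 differed between times (moderated F test, adjusted p = 0.0181), with differences of 0.38, 0.48, -0.1 and -0.23 at 1, 2, 6 and 18 h. IFIT1 differed by -0.47 to 0.38 over the 12 comparisons and was called in none (smallest adjusted p = 0.35).

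SAMD9 and SAMD9L, adjacent genes on chromosome 7 for cytoplasmic restriction factors of poxviruses, fell with budesonide, SAMD9 at 6 h and SAMD9L at 18 h. SAMD9 at 6 h read 7.42, 7.55, 7.38 and 7.27 untreated and 6.85, 6.94, 6.71 and 6.92 with budesonide, without overlap, a difference of -0.55 ± 0.16 (adjusted p = 0.0118). SAMD9L at 6 h differed by -0.48 ± 0.19 (adjusted p = 0.0848), not called, and was called without the 4 arrays. SAMD9L at 18 h read 5.07, 4.7, 5.45 and 5.91 untreated and 4.55, 4.44, 4.33 and 4.34 with budesonide, also without overlap. The difference was -0.87 ± 0.19 (adjusted p = 0.000277), and -0.66 ± 0.17 (adjusted p = 0.00213) without the 4 arrays. Its 4 probe sets ran from -0.87 to -0.07, and their mean was not called (adjusted p = 0.0847).

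With the combination at 18 h SAMD9L differed by -0.51 ± 0.19 (adjusted p = 0.0442), and by -0.3 (adjusted p = 0.335) without untreated replicate 4. Without the 4 arrays set apart it was -0.3 ± 0.17 (adjusted p = 0.243), not called. The call was also lost without untreated replicate 3 and without combination replicate 2 or 4 (adjusted p up to 0.335 over these single omissions). Neither the mean of the probe sets (adjusted p = 0.11) nor a fit of the compared arrays alone (adjusted p = 0.126) kept it. The budesonide effect on SAMD9L differed between times (moderated F test, adjusted p = 0.0211), a call lost without any of 4 single arrays, with an adjusted p up to 0.0858, and without the arrays numbered 1 (adjusted p = 0.102). In the mean of all its probe sets that F test was not called either (adjusted p = 0.447).

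The oligoadenylate synthetases were not called against untreated cells. OAS1 ranged from -0.85 to 0.7 over the 12 comparisons, and the 95% interval of each difference reached 0.97 to either side. OAS3 ranged from -0.12 to 0.31 and OASL, a relative without synthetase activity, from -0.12 to 0.25, with intervals of 0.24 and 0.29 to either side. OAS2 was called once, where the combination was lower than formoterol alone at 18 h by 0.45 ± 0.16 (adjusted p = 0.0339). Without formoterol replicate 1, one of the 4 arrays, it was -0.34 (adjusted p = 0.169), and without all 4 it was -0.34 ± 0.14 (adjusted p = 0.0984). The call was also lost without formoterol replicate 2 or combination replicate 2 or 4 (adjusted p up to 0.277). It was lost as well without the arrays numbered 1 (adjusted p = 0.0776) and in the mean of its probe sets (adjusted p = 0.321).

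Of the 7 other antiviral effectors TRIM22 and GBP1 were called in at least 1 comparison, where 37.8% of all genes were. TRIM22, a ubiquitin ligase that restricts retroviruses and influenza virus, rose with both treatments that contain budesonide at 18 h. It read 6.0, 5.71, 5.66 and 6.73 untreated, 6.98, 6.79, 6.2 and 6.86 with budesonide and 6.92, 6.84, 6.93 and 7.03 with the combination. The combination arrays lay above all untreated ones, and the budesonide group overlapped the untreated group. The difference was 0.68 ± 0.23 (adjusted p = 0.0295) with budesonide and 0.9 ± 0.23 (adjusted p = 0.00203) with the combination. Without the 4 arrays these were 0.91 ± 0.2 (adjusted p = 0.000526) and 1.14 ± 0.2 (adjusted p = 1.3e-05). With all other arrays kept, the budesonide call was lost without any of 6 single arrays, with an adjusted p between 0.0568 and 0.13, and without the arrays numbered 1 (adjusted p = 0.116).

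At 6 h TRIM22 read 6.28, 6.94, 6.33 and 7.46 with the combination and 6.19, 5.72, 5.58 and 5.69 untreated, a difference of 0.96 ± 0.23 (adjusted p = 0.00114), and 0.72 ± 0.2 (adjusted p = 0.00726) without the 4 arrays. Relative to formoterol alone the combination was higher by 0.77 ± 0.23 (adjusted p = 0.0141) at 6 h, which became 0.54 (adjusted p = 0.159) without combination replicate 4. The call was also lost without combination replicate 2 or formoterol replicate 3, and without the 4 arrays (0.54 ± 0.2, adjusted p = 0.0786). At 18 h the combination was higher than formoterol alone by 0.65 ± 0.23 (adjusted p = 0.0397), and by 0.92 ± 0.2 (adjusted p = 0.000526) without the 4 arrays. Leaving out any of 7 single arrays ended that call (adjusted p up to 0.167). All 6 TRIM22 probe sets were higher than in untreated cells with the combination, from 0.26 to 0.96 at 6 h. As the mean of all probe sets 2 differences at 18 h were not called. These were budesonide against untreated cells (0.415, adjusted p = 0.0656) and the combination against formoterol (0.355, adjusted p = 0.139). The combination effect differed between times (moderated F test, adjusted p = 0.00834).

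GBP1, a guanylate-binding GTPase that coats intracellular pathogens, fell with the combination at 6 h and with budesonide at 18 h. At 6 h it read 6.44, 7.04, 6.78 and 6.91 with the combination and 7.58, 8.0, 7.22 and 7.04 untreated, groups that meet at their edges. The difference was -0.67 ± 0.19 (adjusted p = 0.00522), and -0.49 (adjusted p = 0.0754) without untreated replicate 2, and -0.51 (adjusted p = 0.0783) without the arrays numbered 1. At 18 h it read 6.99, 6.92, 6.7 and 6.7 with budesonide and 7.25, 7.51, 7.32 and 7.76 untreated, without overlap. The difference was -0.63 ± 0.19 (adjusted p = 0.00896), and -0.53 (adjusted p = 0.0548) without untreated replicate 4. Without the 4 arrays it was -0.53 ± 0.2 (adjusted p = 0.0546), not called. All 5 GBP1 probe sets were lower in both comparisons. GBP1 was the highest of its group on 1 of the 4 arrays set apart.

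The remaining 5 effectors were not called against untreated cells. MX1 ranged from -1.0 to 1.06 and MX2 from -1.14 to 0.82 over the 12 comparisons, and with budesonide at 18 h they differed by -1.0 ± 0.56 (adjusted p = 0.246) and -1.14 ± 0.57 (adjusted p = 0.183). Untreated MX1 read 5.66, 5.23, 6.17 and 8.47 and budesonide MX1 5.54, 4.36, 5.56 and 6.07, groups that overlap. RSAD2 (viperin), which makes a chain-terminating nucleotide, ranged from -0.58 to -0.06 over the 12 comparisons (smallest adjusted p = 0.214), and CMPK2, its neighbour on chromosome 2, from -0.28 to 0.3. BST2 (tetherin), which holds budding virions on the cell, ranged from -0.45 to 0.24. With the replicate block 9 genes were called with budesonide at 18 h, where same-numbered arrays deviated together, BST2 (-0.45 ± 0.17, adjusted p = 0.036) and IFIT3 (-0.59 ± 0.22, adjusted p = 0.0385) in addition.

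The sensor IFIH1 (MDA5), which detects long double-stranded RNA, was called in no comparison, with differences of -0.46 to 0.18. ISG15 and its 3 measured enzymes were not called against untreated cells either. ISG15 ranged from -0.68 to 0.66 with an interval of 0.74 to either side, and UBE2L6 from -0.09 to 0.19 with an interval of 0.16. The ligases HERC5 and HERC6 ranged from -0.28 to 0.19 and from -0.48 to 0.11. With the block 7 genes were called with the combination at 18 h, HERC6 (-0.48 ± 0.17, adjusted p = 0.0256) and GBP1 (-0.45 ± 0.13, adjusted p = 0.0048) in addition.

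Of the 3 transcription factors measured IRF1 and IRF9 were called in at least 1 comparison, where 37.8% of all genes were. IRF1, which activates many of these genes, fell with budesonide at every time. At 2 h it read 6.79, 6.91, 7.35 and 6.92 untreated and 6.09, 6.06, 6.35 and 6.23 with budesonide, and at 6 h 6.55, 6.26, 6.46 and 6.45 and 5.62, 5.75, 5.43 and 5.69. The groups did not overlap at 2, 6 or 18 h, and did at 1 h. The difference was -0.45 ± 0.11 (adjusted p = 0.018) at 1 h, -0.81 ± 0.11 (adjusted p = 1.05e-07) at 2 h, -0.81 ± 0.11 (adjusted p = 3.82e-08) at 6 h and -0.38 ± 0.11 (adjusted p = 0.00936) at 18 h. The 1 h call was lost without untreated replicate 4 or budesonide replicate 2 or 3, with an adjusted p up to 0.215, in the mean of the 4 probe sets, -0.25 (adjusted p = 0.244), and without the arrays numbered 1, -0.48 (adjusted p = 0.0653).

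With formoterol added, IRF1 did not pass the test against untreated cells at 2 h, with a difference of 0.21 ± 0.11 (adjusted p = 0.305). The combination read 7.12, 7.12, 7.33 and 7.26 and formoterol alone 6.71, 7.18, 7.34 and 7.15. All combination arrays lay above all budesonide arrays. The combination exceeded budesonide by 1.03 ± 0.11 (adjusted p = 1.18e-10), and the interaction was 0.92 ± 0.16 (adjusted p = 0.000126). At 6 h the combination read 6.02, 5.82, 5.69 and 6.02, below all untreated arrays, a difference of -0.54 ± 0.11 (adjusted p = 0.000111), and at 18 h the difference was -0.44 ± 0.11 (adjusted p = 0.00191). It was lower than formoterol alone by 0.66 ± 0.11 (adjusted p = 3.45e-06) at 6 h and by 0.46 ± 0.11 (adjusted p = 0.00124) at 18 h. The combination effect differed between times (moderated F test, adjusted p = 0.000407).

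The 4 IRF1 probe sets were not alike. With budesonide they ran from -0.45 to 0.17 at 1 h, -0.82 to -0.11 at 2 h, -0.81 to 0.22 at 6 h and -0.56 to 0.25 at 18 h, so 1 of the 4 was on the plus side at 1, 6 and 18 h. As the mean over probe sets the combination difference at 18 h was -0.2 (adjusted p = 0.0799).

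IRF1 was also the only one of the 38 genes called in untreated cells over time. It read 7.02, 6.96, 6.95 and 7.28 at 1 h, and was lower by 0.62 ± 0.11 (adjusted p = 0.00113) at 6 h and by 0.48 ± 0.11 (adjusted p = 0.0243) at 18 h. The 18 h call was lost without the 4 arrays (adjusted p = 0.0521) and without any of 6 single arrays (adjusted p up to 0.13), and without the arrays numbered 1 (adjusted p = 0.141). At 2 h against 1 h none of the 38 was called by limma, and 0 had an unadjusted p under 0.05. Of all genes 0.0165%, 0.21% and 0.364% were called at 2, 6 and 18 h against 1 h.

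IRF9, the DNA-binding part of the type I interferon complex, rose with the combination at 6 h. It read 8.15, 8.37, 8.07 and 8.89, against 7.67, 7.68, 7.53 and 7.56 untreated, without overlap. The difference was 0.76 ± 0.19 (adjusted p = 0.00147), and 0.58 ± 0.16 (adjusted p = 0.00552) without the 4 arrays. All 4 IRF9 probe sets were higher, from 0.41 to 0.76. Budesonide alone read 8.15, 8.03, 8.04 and 8.11 at 6 h, a difference of 0.48 ± 0.19 (adjusted p = 0.0841) that was not called, and 0.48 ± 0.15 (adjusted p = 0.0202) without the 4 arrays.

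At 18 h IRF9 read 7.69, 7.69, 7.66 and 8.64 untreated and 8.44, 7.9, 8.61 and 8.17 with the combination. The difference was 0.36 ± 0.19 (adjusted p = 0.201), not called, and 0.59 ± 0.16 (adjusted p = 0.00408) without the 4 arrays, which leaves out the high untreated replicate 4. The combination effect on IRF9 differed between times (moderated F test, adjusted p = 0.00358). IRF7, which amplifies the transcription of interferon alpha genes, was not called, with differences of -0.23 to 0.35.

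**Figure D5:**
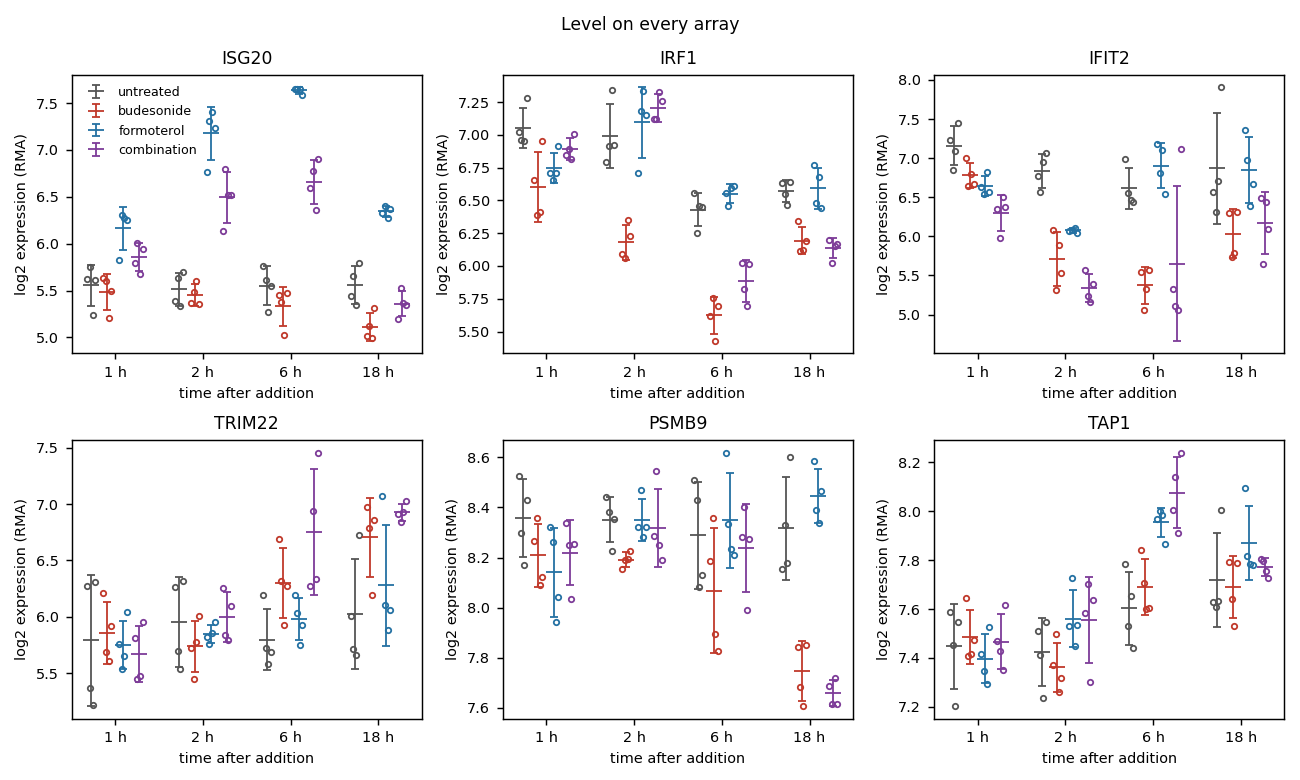
Log2 expression on every array (points) with the group mean and SD (bars) for ISG20, IRF1, IFIT2, TRIM22, PSMB9 and TAP1 at 1, 2, 6 and 18 h (horizontal axis), by treatment (colour), 4 arrays in each group. ISG20 is highest with formoterol at 6 h (7.58 to 7.66), the combination group of IFIT2 at 6 h holds 1 array at 7.12 above 3 arrays at 5.06 to 5.33, and PSMB9 is low at 18 h in both groups with budesonide.

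The antigen processing genes PSMB9 and TAP1 share the stretch between their starts. Both were called against untreated cells in at least 1 comparison, where 37.8% of all genes were. PSMB9, a catalytic subunit of the immunoproteasome, fell at 18 h where budesonide was present. It read 7.84, 7.68, 7.61 and 7.85 with budesonide and 7.69, 7.62, 7.72 and 7.62 with the combination, against 8.16, 8.33, 8.18 and 8.6 untreated and 8.59, 8.39, 8.34 and 8.47 with formoterol. Every array with budesonide lay below every array without it. The difference was -0.57 ± 0.11 (adjusted p = 2.27e-05) with budesonide and -0.66 ± 0.11 (adjusted p = 1.16e-06) with the combination, and -0.48 ± 0.11 (adjusted p = 0.00107) and -0.56 ± 0.11 (adjusted p = 8.35e-05) without the 4 arrays. The combination was lower than formoterol alone by 0.78 ± 0.11 (adjusted p = 1.96e-08). Its effect differed between times (moderated F test, adjusted p = 0.00148). Of the 3 PSMB9 probe sets 1 was on the plus side, and they ran from -0.64 to 0.19 with budesonide and from -0.69 to 0.27 with the combination.

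TAP1, a subunit of the transporter that carries peptides to class I molecules, rose at 6 h where formoterol was present. It read 7.97, 8.0, 7.99 and 7.87 with formoterol and 8.01, 8.14, 7.91 and 8.24 with the combination, against 7.79, 7.53, 7.65 and 7.44 untreated and 7.84, 7.71, 7.6 and 7.6 with budesonide. All arrays with formoterol lay above all arrays without it. The difference was 0.35 ± 0.09 (adjusted p = 0.0129) with formoterol and 0.47 ± 0.09 (adjusted p = 7.34e-05) with the combination, and the combination exceeded budesonide by 0.39 ± 0.09 (adjusted p = 0.00393). The formoterol call was lost without untreated replicate 2 or 4, with an adjusted p up to 0.09. Both TAP1 probe sets were higher. The combination effect differed between times (moderated F test, adjusted p = 0.0225), which was lost without the 4 arrays (adjusted p = 0.0999) and without any of 4 single arrays.

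The PARP proteins, the chemokines and the 6 remaining proteins were not called against untreated cells. PARP9, a partner of the ligase DTX3L, ranged from -0.44 to 0.22 and PARP14 from -0.33 to 0.12. CXCL10, which attracts T cells, ranged from -0.11 to 0.18 around a mean level of 2.90, and CXCL11, a ligand of the same receptor, from -0.24 to 0.14 around 1.95, and such low signals leave little room for a fall. IFI6 ranged from -0.32 to 0.61, IFI27 from -0.56 to 0.62, IFI35 from -0.2 to 0.19, IFI44 from -0.69 to 0.32, IFI44L from -0.45 to 0.59 and XAF1 from -0.31 to 0.05. The interval of a difference reached 0.22 to either side for XAF1 and 1.01 for IFI27, so differences of the latter were less precise. These intervals are not adjusted for the number of genes and give no limit of detection for a call.

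Between the combination and budesonide alone none of the 38 was called by limma at 1 h (1.47% of all genes, with 5 of the 38 at an unadjusted p under 0.05). At 2 h 2 were called (4.38% of all genes), IRF1 and ISG20, and at 6 h 2 (6.72%), ISG20 and TAP1, all higher with formoterol added. ISG20 was higher by 1.04 ± 0.13 (adjusted p = 1.57e-08) at 2 h and by 1.33 ± 0.13 (adjusted p = 1.37e-11) at 6 h. None was called by limma at 18 h (0.651% of all genes, with 1 of the 38 at an unadjusted p under 0.05). With the block 4 were called at 6 h, ISG15 (0.84 ± 0.29, adjusted p = 0.0436) and IRF1 (0.27 ± 0.08, adjusted p = 0.0129) in addition.

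Between the combination and formoterol alone none was called by limma at 1 h (1.27% of all genes, with 2 of the 38 at an unadjusted p under 0.05). At 2 h 1 was called (4.15%), at 6 h 4 (13.4%), 3 of them lower (7.85%), and at 18 h 5 (17.6%), 4 of them lower (8.66%). ISG20 was lower at 2, 6 and 18 h, IRF1 at 6 and 18 h, IFIT2 at 6 h, PSMB9 and OAS2 at 18 h, and TRIM22 was higher at 6 and 18 h. With the block 3 were called at 2 h, IFIT2 (-0.74 ± 0.24, adjusted p = 0.0463) and IFIT5 (0.36 ± 0.12, adjusted p = 0.0449) in addition. Without the 4 arrays 7 were called at 6 h, where IFIT1 differed by -0.73 ± 0.2 (adjusted p = 0.0067), IFIT3 by -1.02 ± 0.18 (adjusted p = 9.6e-06), SAMD9 by -0.52 ± 0.12 (adjusted p = 0.000803) and HERC5 by -0.42 ± 0.11 (adjusted p = 0.0041).

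The interaction was called by limma for none of the 38 at 1 h (0.171% of all genes, with 2 of the 38 at an unadjusted p under 0.05) and at 18 h (0.276%, with 2). It was called for IRF1 at 2 h, where 0.59% of all genes were, and for ISG20 at 6 h (0.722%). Over the 4 times the budesonide effect differed for 2 of the 38 (12.7% of all genes), the formoterol effect for 1 (4.51%) and the combination effect for 6 (22.6%). With the 4 arrays left out the budesonide effect differed for 6 genes, with IFIT2 (0.0125), IFIT3 (0.0317), SAMD9 (0.00847) and TRIM22 (0.0325) in addition, adjusted p in brackets. The formoterol effect then differed for 2 genes, with IFIT2 (0.00914) in addition. The combination effect differed for 9, with IFIT1 (0.0448), IFIT2 (0.000995), IFIT3 (0.00739) and SAMD9 (8.26e-05) in addition and TAP1 lost. The arrays left out were picked by these genes, so these gains are no independent support.

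The other genes of the pathway were read from gene lists by role. Of 9 interferon genes 6 were measured, with mean levels from 1.75 (IFNA2) to 3.21 (IFNL1), and limma called none of them in the 12 comparisons with untreated cells (smallest adjusted p = 0.192). Of these 72 tests 5 had an unadjusted p under 0.05. Of 11 receptors, kinases and STAT proteins 10 were measured, and with budesonide 2 were higher and 1 lower at 6 h, where 14.2% of all genes were called, and 2 were higher at 18 h (18.3%). JAK2, a kinase of the interferon gamma receptor, rose by 1.6 ± 0.12 (adjusted p = 4.88e-17) at 6 h and by 1.35 ± 0.12 (adjusted p = 2.66e-14) at 18 h. With the combination 4 were higher at 6 h, against 8.61% of all genes. IFNGR1, the ligand-binding chain of that receptor, rose by 0.8 ± 0.08 (adjusted p = 1.25e-12) with the combination at 2 h.

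Of 12 inhibitors of interferon signalling 2 were higher and 1 lower with budesonide at 2 h, where 3.94% of all genes were called, and 1 higher and 3 lower at 18 h (18.3%). SOCS3, which blocks Janus kinases, fell by 1.52 ± 0.23 (adjusted p = 1.74e-06) with budesonide and rose by 2.15 ± 0.23 (adjusted p = 9.44e-11) with formoterol at 2 h. SOCS2, of the same family, rose by 1.54 ± 0.2 (adjusted p = 3.53e-08) with budesonide at 2 h and fell by 1.15 ± 0.2 (adjusted p = 7.68e-06) at 18 h. Of 9 further interferon regulatory factors and their binding proteins 8 were measured, and 1 was called with budesonide at 1 h, against 0.998% of all genes. This was IRF2BP2, a co-repressor, which rose by 1.18 ± 0.16 (adjusted p = 2.96e-07).

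Of 13 sensors and adaptors 2 were higher and 2 lower with budesonide at 6 h, where 14.2% of all genes were called, and 1 higher and 2 lower at 18 h (18.3%). TRAF3, an adaptor in interferon induction, fell by 0.71 ± 0.1 (adjusted p = 5.29e-08) at 18 h, and DHX58 (LGP2), a regulator of IFIH1, rose by 0.54 ± 0.12 (adjusted p = 0.000677) at 6 h. Of 56 other interferon-induced genes 54 were measured, and 4 were higher and 6 lower with budesonide at 6 h, and 6 higher and 13 lower at 18 h. Of all genes 14.2% were called at 6 h and 8.12% lower, and 18.3% at 18 h and 9.78% lower. CASP1, the inflammatory caspase, rose by 2.03 ± 0.17 (adjusted p = 4.7e-15) at 18 h and SP110, a nuclear body protein, by 1.89 ± 0.12 (adjusted p = 2.98e-20) at 6 h, while GBP3, a relative of GBP1, fell by 1.27 ± 0.16 (adjusted p = 1.39e-09) at 6 h.

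That list holds partners of PSMB9 and TAP1 in antigen processing. With budesonide at 18 h TAP2, the other subunit of the peptide transporter, fell by 1.04 ± 0.09 (adjusted p = 1.16e-14), PSMB10, another immunoproteasome subunit, by 0.32 ± 0.08 (adjusted p = 0.00109) and HLA-B by 0.36 ± 0.11 (adjusted p = 0.0135). HLA-E rose by 0.46 ± 0.12 (adjusted p = 0.0032). PSMB8 and B2M were not called, at -0.19 ± 0.1 (adjusted p = 0.174) and -0.04 ± 0.07 (adjusted p = 0.755). TAP1 itself read 7.79, 7.64, 7.53 and 7.79 with budesonide and 7.63, 7.61, 7.63 and 8.01 untreated at 18 h, groups that overlap.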

How the data were processed

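Total RNA of BEAS-2B cells was read on 64 arrays, 4 in each of 16 groups. The deposited values are on a log2 scale and come from RMA, per the submitters' processing notes. The version, and whether all arrays were normalized jointly, are not stated in the sources used here. Groups were taken from the sample labels. Of 49395 probe sets 44994 carry 1 symbol, 1832 several and 2569 none, and each of 18132 genes was read from its brightest probe set on average. The number of arrays limits the precision.

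Differences were tested with limma 3.58.1 in R 4.3.3, with 1 mean per group over all 64 arrays, an intensity trend, 48 residual degrees of freedom and Benjamini-Hochberg adjustment over 18132 genes, without a filter on low values. The code was tested on simulated data. Members and lists were chosen with earlier results of these data known. Any member could be named, with the values of every array for the 10 with the largest called change against untreated cells and for others a result turned on (TAP1, IFIT5, IFIT1, ISG15, MX1 and MX2, chosen after their values were seen). Same-numbered arrays were checked for shared deviations from the group means. In 13 of 27 comparisons every pair of same-numbered arrays correlated above 0.1, and there the fit with the replicate number as a block is given beside results whose call it changed. Alternatives were that block, centring, a filter on dim genes, no trend, averaging a gene's probe sets, the compared arrays alone, leaving out the arrays numbered 1 or each array in turn, and, added after seeing the data, leaving out 4 arrays. Figures were drawn with matplotlib 3.10.9.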

Additional observations from a re-analysis of the deposited data

Results flagged for a closer look

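In 9 of 160 groups of 4 arrays tested, over the 10 genes with the largest called changes, 1 array stood apart by Dixon's criterion, where chance gives about 5% of groups. The criterion sets the gap to the next array against the range of the group, so a small gap in a tight group also passes. The high values were IFIT2 at 7.12 on combination replicate 4 at 6 h, IFIT3 at 7.70 and SAMD9 at 8.16 on formoterol replicate 1 at 18 h, SAMD9 at 8.36 and IRF9 at 8.64 on untreated replicate 4 at 18 h, IRF9 at 8.26 on untreated replicate 4 at 2 h, and SAMD9L at 4.86 on formoterol replicate 3 at 6 h. All of these except the SAMD9L value come from the 4 arrays on which most of the 38 genes were high. The low values were ISG20 at 5.82 on formoterol replicate 1 at 1 h and at 7.58 on formoterol replicate 4 at 6 h. The latter group had an SD of 0.034, so its gap was small in log2 units.

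In 9 of 114 tests of whether a drug's effect differed between 1, 2, 6 and 18 h, limma's moderated F test passed after adjustment over all genes. Of all genes 12.7% passed for budesonide, 4.51% for formoterol and 22.6% for the combination. The adjusted p was 0.0181 for IFIT5 and 0.0211 for SAMD9L with budesonide, and 6.53e-09 for ISG20 with formoterol. With the combination it was 5.44e-08 for ISG20, 0.00834 for TRIM22, 0.000407 for IRF1, 0.00358 for IRF9, 0.0225 for TAP1 and 0.00148 for PSMB9. The calls for SAMD9L and TAP1 were lost in some alternatives, as given above.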

How the results depend on the processing

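Counts are of the 38 genes called, beside the counts in the report. With the replicate number as a block all 62 named calls were kept and most counts were equal or higher. The mean correlation of same-numbered arrays was positive in all 27 comparisons, from 0.112 to 0.442, and every single pair exceeded 0.1 in 13 of them. Genes called against untreated cells only with the block include UBE2L6 (0.19 ± 0.07, adjusted p = 0.0304) and IFI6 (0.61 ± 0.23, adjusted p = 0.0447) with the combination at 6 h. The counts with the block were 2 for formoterol, 1 for the combination, 2 for the combination against budesonide and 1 for the interaction at 1 h. At 2 h they were 4 for formoterol, 5 for the combination, 3 for the combination against formoterol and 2 for the interaction. At 6 h they were 9 for budesonide, 4 for the combination against budesonide and 7 for the combination against formoterol. At 18 h they were 11 for the combination against formoterol and 1 for the interaction. The budesonide effect differed between times for 5 genes with the block.

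Centring the arrays and leaving out dim genes lost none of the 62 calls, omitting the trend lost 1, and the mean of all probe sets lost 11. Without dim genes the counts were 1 for the combination at 1 h and 2 for formoterol at 2 h. With the mean of all probe sets they were 0 for budesonide at 1 h, 2 for the combination against formoterol at 2 h, 2 for the combination and 3 for the combination against formoterol at 18 h, and 1 for the budesonide effect between times. With the compared arrays alone, which lost 8 calls, they were 0 for budesonide and 2 for the combination at 1 h, 3 for formoterol and 3 for the combination against formoterol at 2 h, 7 for budesonide at 6 h, and 0 for untreated cells at 18 h against 1 h. Without the arrays numbered 1, which lost 9, they were 0 for budesonide at 1 h, 0 for the interaction at 6 h, 0 for untreated cells at 18 h against 1 h and 1 for the budesonide effect between times. Without the 4 arrays, which lost 8, they were 2 for the combination at 1 h, 3 for formoterol and 2 for the combination against formoterol at 2 h, 7 for budesonide and 7 for the combination against formoterol at 6 h, 0 for untreated cells at 18 h against 1 h, 6 for the budesonide effect and 2 for the formoterol effect between times. The cause of these shifts was not tested.

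Leaving out 1 array at a time lost a call in 67 cases and kept it in 661. The counts then ranged from 0 to 1 for budesonide, formoterol, the combination and the interaction at 1 h. At 2 h they ranged from 2 to 3 for budesonide, 1 to 2 for formoterol, 3 to 4 for the combination and 1 to 2 for the interaction. At 6 h they ranged from 4 to 5 for budesonide, 1 to 2 for formoterol, 6 to 8 for the combination, 0 to 1 for the interaction and 3 to 5 for the combination against formoterol. At 18 h they ranged from 4 to 8 for budesonide, 3 to 7 for the combination and 3 to 6 for the combination against formoterol. For untreated cells at 18 h against 1 h the range was 0 to 1, and for the budesonide and combination effects between times 1 to 3 and 5 to 7.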
